A study of Mus musculus with 108 samples.

Results

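Described here are 10 genes of endotoxin sensing, the route by which cells detect bacterial lipopolysaccharide: Lbp, Cd14, Ly96 and Tlr4 for binding and reception, Myd88, Irak4 and Irak1 for relay, and Irak3, Tnfaip3 and Nfkbia as brakes. They were taken by symbol from a table of 55416 genes, and all 10 passed the filter on low counts in every tissue. Irak3 had stood out in the liver difference between genotypes, and the others were chosen as its pathway. Liver differences between genotypes were fitted like the others but are given as a description, since they led to the choice. Liver calls are counted only beside the share of all genes called, and nothing is read from them. The mice were C57BL/J males of 8 to 12 weeks, kept in a light and dark cycle with food and water always at hand. They were labelled Bmal1-iKO or Bmal1-flox, written iKO and flox here. Bulk RNA-seq covered 3 tissues, the liver, the kidney and white adipose tissue (WAT). Tissue was taken at 6 zeitgeber times (ZT, hours after lights on), namely ZT2, 6, 10, 14, 18 and 22. A group of 1 tissue, genotype and time held 3 libraries, so that 18 libraries stood behind each genotype in a tissue. The design sets iKO against flox, and the series title names the intestine clock and liver metabolism. Bmal1, listed as Arntl, is the core activator of the circadian clock. The labels do not give the promoter or cells of a deletion, nor whether libraries of a group came from separate animals. All p-values thus measure the spread between these libraries, which may be technical.

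Lipopolysaccharide from gut bacteria reaches the liver in portal blood. The plasma protein Lbp hands it to Cd14, and Cd14 passes it to the complex of Ly96 (also called MD-2) and the receptor Tlr4. Tlr4 then recruits the adaptor Myd88, which assembles the kinases Irak4 and Irak1 and leads to release of the transcription factor NF-kB. Irak3, also called IRAK-M, is a kinase relative that holds this assembly back and is known chiefly from monocytes and macrophages. Tnfaip3 (A20) is a ubiquitin-editing enzyme and Nfkbia is the inhibitor that holds NF-kB in the cytoplasm, and both are themselves NF-kB targets.

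Promoter sequences are shown for the 3 brake genes because Tnfaip3 and Nfkbia are NF-kB targets and because Bmal1 binds the E-box CACGTG. Windows came from RefSeq's promoter table on build GRCm38.p6 and ran from 250 bases before to 50 bases after a start. Those of 6 of the 10 genes were used. Capitals mark matches to the E-box or to the NF-kB consensus, searched on both strands, and positions count from the start. In Irak3 the window of the start inside the gene, chr10:120201548-120201847 on the minus strand, held an E-box at position 6. In Tnfaip3 the window of the outer start, chr10:19015361-19015660 on the minus strand, held NF-kB matches at -125 and -12 with an E-box at -33 between them. In Nfkbia the window chr12:55492598-55492897, also on the minus strand, held an NF-kB match at -29.
Irak3: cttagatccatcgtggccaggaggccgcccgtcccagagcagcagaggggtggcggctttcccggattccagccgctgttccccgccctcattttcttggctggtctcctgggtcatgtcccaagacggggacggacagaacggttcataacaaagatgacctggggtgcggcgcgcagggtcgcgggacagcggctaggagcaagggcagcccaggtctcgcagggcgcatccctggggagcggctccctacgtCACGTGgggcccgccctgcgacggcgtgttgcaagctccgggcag
Tnfaip3: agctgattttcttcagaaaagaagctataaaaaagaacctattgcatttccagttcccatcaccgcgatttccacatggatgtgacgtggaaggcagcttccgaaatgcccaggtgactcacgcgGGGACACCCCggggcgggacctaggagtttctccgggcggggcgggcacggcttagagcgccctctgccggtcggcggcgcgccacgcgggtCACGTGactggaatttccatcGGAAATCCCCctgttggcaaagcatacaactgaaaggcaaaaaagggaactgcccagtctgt
Nfkbia: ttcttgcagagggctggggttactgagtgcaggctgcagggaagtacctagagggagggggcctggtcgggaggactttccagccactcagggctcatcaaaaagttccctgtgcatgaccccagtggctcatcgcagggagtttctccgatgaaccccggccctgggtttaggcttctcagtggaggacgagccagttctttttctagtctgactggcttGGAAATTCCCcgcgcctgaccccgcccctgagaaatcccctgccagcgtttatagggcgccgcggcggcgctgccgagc
An E-box stood in 7.15% and an NF-kB match in 4.51% of 32851 promoter windows of this length. A match describes the letters only. Neither motif was matched in the windows of Myd88, Irak1 and Irak4, in the second start of Tnfaip3 or in the outer start of Irak3. Tlr4, Cd14, Ly96 and Lbp were not among the windows.

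On build GRCm38 (GENCODE vM21) Irak3 lies at chr10:120141648-120202130 on the minus strand and Tnfaip3 at chr10:19000910-19015657 on the same strand. Tlr4 lies at chr4:66827584-66930284 and Ly96 at chr1:16688051-16709611, both on the plus strand. Where exons of 2 genes overlap, reads cannot be assigned without strand, and the strand setting of the counting is not given in the sources used here. Exons of the opposite-strand gene Acaa1a covered 11.3% of the exon bases of Myd88. Those of Twf1 covered 7.87% of Irak4, and those of Tmbim4 covered 5.22% of Irak3. Values of these 3 genes could hold some reads of their neighbours.

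Library totals were 14427873 to 23428470 counts in liver, 13875646 to 22122971 in kidney and 14103498 to 24414797 in WAT. In liver 11 libraries stood apart, with 30 cell cycle genes at a mean above 2 on the log2 scale of CPM, the usual depth-scaled count, here with TMM scaling, and 9 of them were iKO. The iKO ones were numbers 1 and 2 at ZT6, ZT14 and ZT18 and all 3 at ZT22, and the flox ones were number 1 at ZT6 and at ZT22. Their summed macrophage markers (12 genes) were 3372 to 6549 CPM, against 131 to 1911 CPM in the other 25. Summed monocyte markers (6 genes) were 137 to 552 CPM in the 11, against 5.0 to 65.6 CPM. Mitochondrial transcripts took 2.44% to 6.57% of counts in the 11, against 4.86% to 30.6%. Hepatocyte markers overlapped, at 50385 to 113275 CPM in the 11 and 58771 to 141079 CPM in the rest. Results are given with and without the 11 numbers (genotype, time and replicate), an alternative added after the data were seen. In each tissue this left no iKO library at ZT22. In 2 iKO numbers, ZT18 1 and ZT22 3, the female-specific RNA Xist exceeded 100 CPM in liver although all mice are labelled male. The average log2 difference of Arntl itself between iKO and flox came to -0.10 (liver), 0.28 (kidney) and -0.09 (WAT), with SE of 0.18, 0.21 and 0.22 in that order. The intestine was not measured, so these values do not check the genotype. In kidney the tubule markers summed to 12086 to 65941 CPM, and in WAT the adipocyte markers to 189 to 46994 CPM, so adipocyte RNA was scarce in some WAT libraries. In 2 of them, both iKO, adrenal markers were high, up to 15515 CPM.

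Irak3 was higher in iKO than in flox liver, and the fitted difference was smaller without the 11 libraries that stood apart. In 18 iKO livers it ranged from 0.654 CPM over a median of 8.88 CPM to 34.6 CPM, against 0.127, 1.15 and 30.2 CPM in 18 flox livers. The 2 groups span almost the same range and differ in how many libraries sit at the top. Averaged over 6 times, the fit put iKO above flox by 2.01 in log2 units (SE 0.47), which is 4.03-fold. Without the 11 numbers it was 0.62 (SE 0.31), over the 5 times that kept iKO libraries. In bulk tissue, more cells of a type and more RNA per cell cannot be told apart.

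By time, the libraries fell into a low and a high range of Irak3 with nothing between. At ZT2 the iKO livers held 2.0, 1.52 and 2.80 CPM of Irak3, against 2.09, 0.993 and 1.57 CPM in flox. At ZT10 they held 0.654, 2.16 and 1.18 CPM, against 0.820, 0.903 and 1.06 CPM in flox. Genotypes overlapped at both times, and none of these 12 libraries was among the 11. At ZT6 the iKO livers held 16.6, 29.6 and 1.37 CPM of Irak3, against 23, 1.17 and 1.86 CPM in flox. Here 2 iKO libraries and 1 flox library were high. At ZT14 the iKO values were 16.8, 30.8 and 1.52 CPM, against 0.416, 0.127 and 1.13 CPM in flox, and at ZT18 they were 33.4, 14.95 and 1.5 CPM, against 1.17, 0.867 and 0.521 CPM. These were the times at which the groups did not overlap, with fitted log2 differences of 4.93 (SE 1.31) at ZT14 and 4.28 (SE 1.23) at ZT18. The share of all genes whose groups of 3 did not overlap at a time was not counted, so nothing is read from such gaps. At ZT18 edgeR called 0.0362% of all genes and none of the 10. DESeq2 called Irak3, Tlr4 and Tnfaip3 at both times and Cd14 at ZT18, where it called 2.92% of all genes at ZT14 and 8.35% at ZT18. At ZT22 all 3 iKO livers were high, at 34.6, 18.2 and 23.9 CPM, against 30.2, 3.69 and 3.26 CPM in flox. The differences at the other 4 times were 0.45 at ZT2, 0.85 at ZT6, 0.52 at ZT10 and 1.04 at ZT22, each with an SE above 1.

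**Figure D1:**
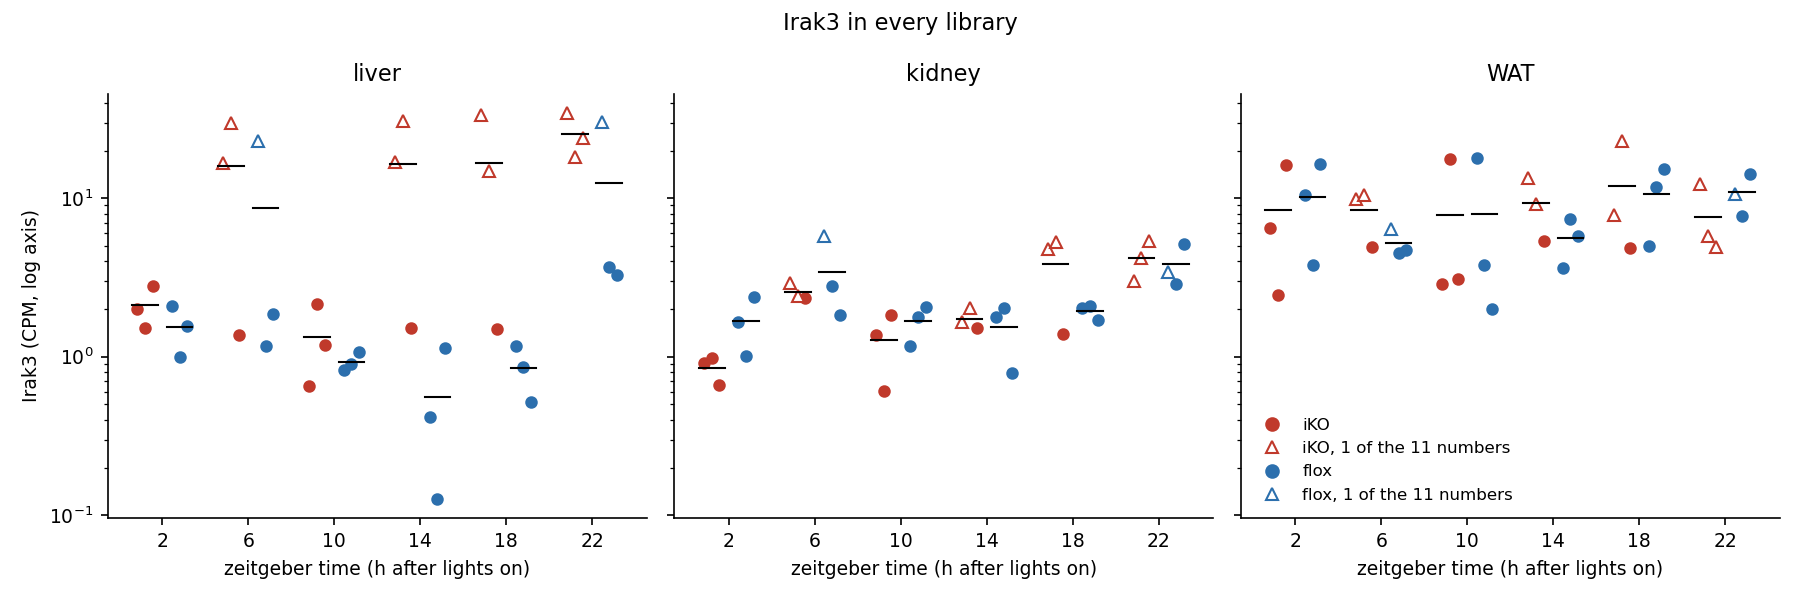
Irak3 in CPM (log axis) in each library of liver, kidney and WAT, by tissue and zeitgeber time, with iKO left of flox. Open triangles are the 11 numbers that stand apart in liver, circles the others, and bars are means of 3 libraries. In liver the triangles sit at 14.95 to 34.6 CPM and the circles at 0.127 to 3.69 CPM, while in WAT the 2 kinds overlap.

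Of the 10 genes, 1 was called in liver on average (Irak3, at an adjusted p under 0.05), where 2.64% of 16582 genes were called, 1.09% higher and 1.56% lower. Without the 11 numbers 0 of the 10 were called, where 7.03% of 17067 genes were, 3.12% higher and 3.91% lower, at an Irak3 difference of 0.62. Without the 2 Xist numbers 0 were called at an Irak3 difference of 1.85 (SE 0.48), close to the 2.01 of all libraries. Irak3 was picked from this contrast, so nothing is read from these counts. The 11 numbers lay above all other 25 in liver for 4 of the 10 genes, Irak3, Tlr4, Cd14 and Tnfaip3, as they did for 6.77% of all genes, and below all 25 for 3.09% of genes and none of the 10.

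Among the genes that bind and receive lipopolysaccharide, Cd14 and Tlr4 followed the same split of libraries as Irak3, while Ly96 and Lbp did not. Tlr4 in iKO livers ranged from 0.178 over a median of 4.64 to 29.7 CPM, against 0.245, 1.12 and 28.4 CPM in flox livers. In the 11 it was 8.18 to 29.7 CPM, against 0.178 to 4.4 CPM in the other 25. Its fitted average difference of 1.15 on the log2 scale (SE 0.51) became -0.26 (SE 0.40) without the 11 numbers. The sign of the Tlr4 difference thus turned with those libraries. Cd14, the co-receptor carried by monocytes and macrophages, ranged from 0.833 over 11.5 to 54.8 CPM in iKO, against 0.797, 3.71 and 36.4 CPM in flox. Its difference was 0.83 (SE 0.39) with all libraries and 0.12 (SE 0.38) without the 11. Its highest liver value, 54.8 CPM, was in iKO ZT18 2. At ZT18 the iKO livers held 20.4, 54.8 and 3.20 CPM of Cd14, against 0.797, 2.54 and 2.74 CPM in flox. The groups did not overlap at ZT14 and ZT18. Nothing is read from these gaps, since their share over all genes was not counted.

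Ly96, the partner that holds lipopolysaccharide in the Tlr4 complex, was level between genotypes. It ranged from 2.64 over 4.72 to 9.85 CPM in iKO livers, against 2.72, 4.47 and 8.19 CPM in flox livers, with a fitted log2 difference of -0.03 (SE 0.12). None of the 11 lay above the other 25 for Ly96, in contrast with the receptor it binds. Lbp, an acute-phase protein secreted by hepatocytes, ran the other way in the 11. It ranged from 25.8 over 119 to 193 CPM in iKO livers, against 23.1, 132 and 201 CPM in flox. Of the 11 libraries 8 lay below all other 25, which held 74.3 to 201 CPM. The share of all genes split to this degree was not counted, so nothing is read from that count. The lowest Lbp values in liver were the 23.1 CPM of flox ZT6 1 and the 25.8 CPM of iKO ZT18 2. Its average log2 difference was -0.23 (SE 0.27), and 0.05 (SE 0.15) without the 11.

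The relay genes differed less. Myd88 in iKO livers ranged from 16.0 over 26.6 to 41.9 CPM, against 13.5, 17.4 and 38.6 CPM in flox livers. Its fitted log2 difference was 0.49 (SE 0.15), positive at all 6 times, and 0.16 (SE 0.11) without the 11. In the 11 it was 22.4 to 41.9 CPM, and 10 of them lay above the other 25, which reached 26.8 CPM. Here too the share of all genes split to this degree was not counted. Irak4, the kinase that starts the relay, was 4.38 to 18.5 CPM in iKO livers with a median of 9.77, against 6.05 to 16.6 CPM with a median of 7.78 in flox. Its log2 difference of 0.18 (SE 0.17) became -0.46 (SE 0.16) without the 11. At ZT18 the 1 iKO liver outside the 11 held 4.38 CPM of Irak4, the lowest value of all 36. Irak1, the kinase that Irak4 activates, was nearly level, at 34.7 to 53.8 CPM in iKO and 30.2 to 53.2 CPM in flox, with a difference of 0.08 (SE 0.07).

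Of the other brakes, Tnfaip3 had the wider spread and Nfkbia the narrower one. Tnfaip3 ranged from 0.451 over 4.71 to 83.7 CPM in iKO livers, against 0.836, 1.47 and 52.7 CPM in flox livers. Its log2 difference was 1.25 (SE 0.51) with all libraries and 0.46 (SE 0.27) without the 11. The top 3 values were 83.7 CPM in iKO ZT6 2, 52.7 CPM in flox ZT6 1 and 50.4 CPM in flox ZT22 1, so both flox libraries among the 11 were near the top. At ZT14 the iKO livers held 25.8, 39.2 and 3.18 CPM of Tnfaip3, against 2.75, 1.47 and 1.22 CPM in flox. The groups did not overlap at ZT14 and ZT18. Nfkbia ranged from 22 over 35.8 to 50.1 CPM in iKO, against 18.3, 22.6 and 54.1 CPM in flox, with no overlap at ZT10 and ZT18. Its difference was 0.38 (SE 0.13), and 0.24 (SE 0.12) without the 11. In Nfkbia 5 of the 11 lay above the other 25, which reached 40.5 CPM. Neither such partial splits nor the gaps between groups at single times were counted over all genes. Nothing is read from them for Tnfaip3 and Nfkbia. Leaving out flox ZT6 1 alone raised the number of the 10 genes called in liver to 6, while calls over all genes rose from 438 to 3247. Leaving out other single libraries gave 1 to 4 of the 10. Nothing is read from these counts.

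**Figure D2:**
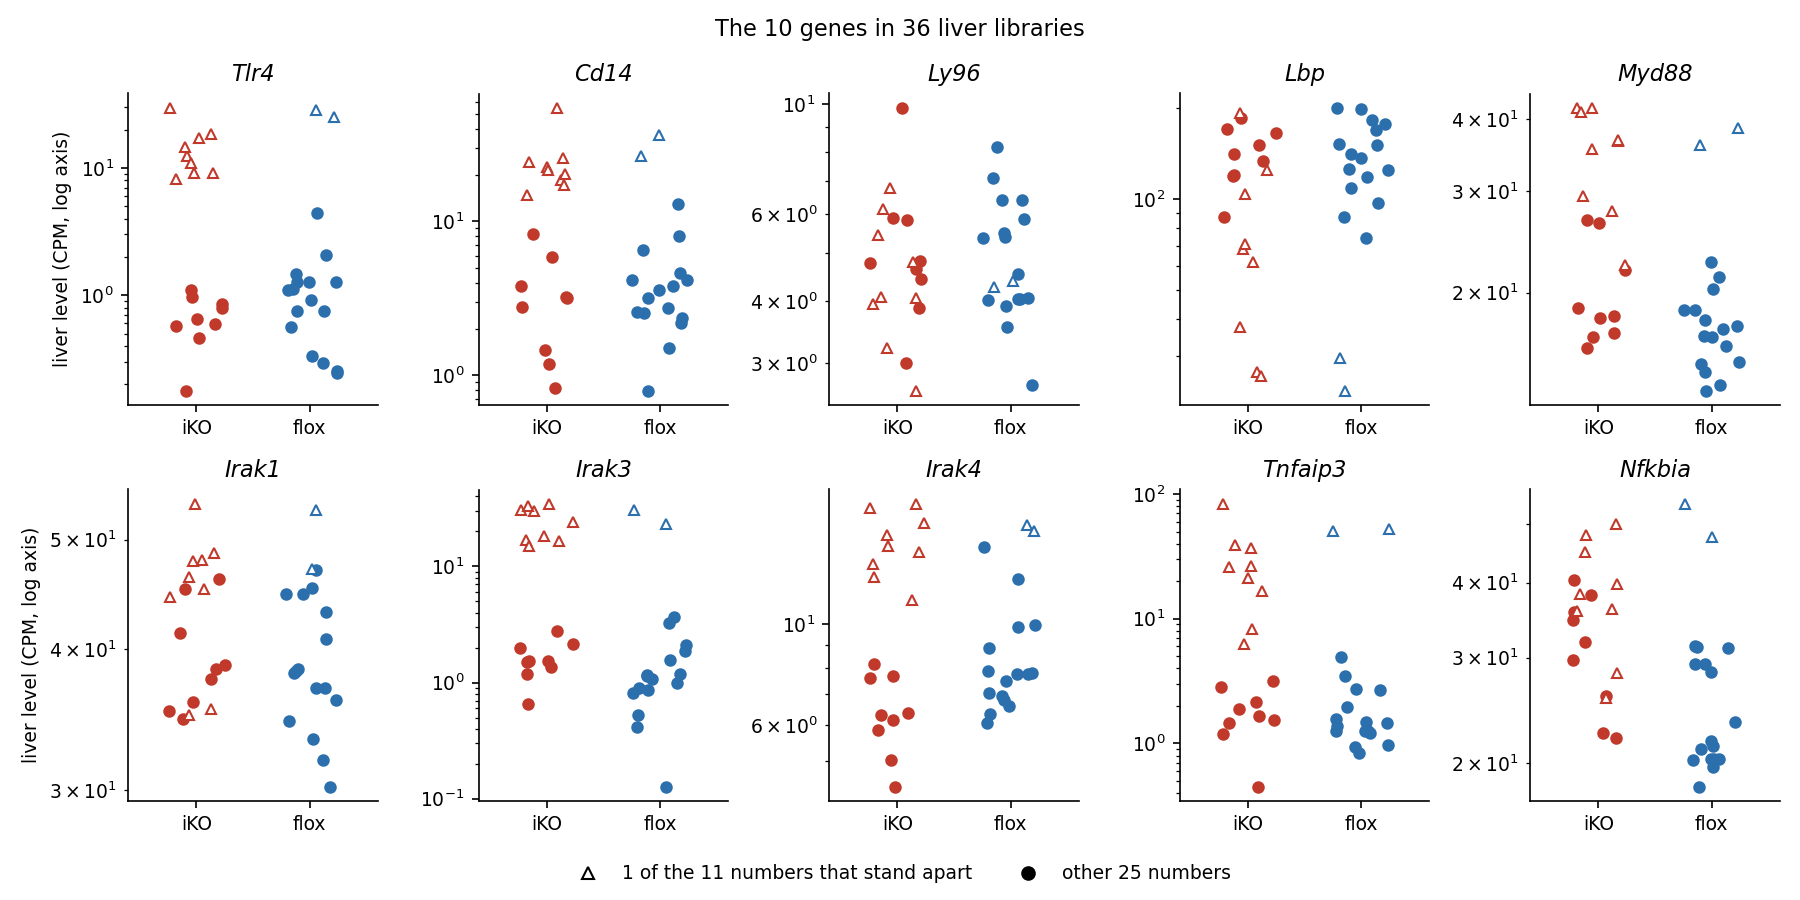
Levels of the 10 genes in CPM (log axes, one scale per gene) in 36 liver libraries, 18 iKO left and 18 flox right. Open triangles are the 11 libraries that stand apart and circles the other 25. The triangles lie clear of the circles for Tlr4, Cd14, Irak3 and Tnfaip3, mostly below them for Lbp, and among them for Ly96.

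Cell type markers in liver went both ways between genotypes. All 12 macrophage markers and all 6 monocyte markers had higher fitted averages in iKO liver, with medians of 1.02 and 1.49 on the log2 scale. Of these, 0 were called, where 2.64% of all genes were. Fitted averages were lower for 5 of 6 stromal, 6 of 8 hepatocyte, 3 of 4 tested cholangiocyte and all 4 mesothelium markers. Medians of these 4 lists were -0.22, -0.24, -0.62 and -1.6 in that order, and 1 mesothelium marker was called lower. Neutrophil markers summed to 28.2 to 208 CPM in the 11 and 2.68 to 29.1 CPM in the other 25, and interferon-stimulated genes to 1506 to 3833 CPM and 382 to 1081 CPM. No macrophage or monocyte marker was at 0 in all libraries. The part of these cells, of the cell cycle genes and of the mitochondrial share in the values of the 10 genes was not tested.

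In kidney none of the 10 genes was called between genotypes on average, where 0.164% of 17630 genes were called by edgeR's quasi-likelihood test, 0.0737% higher and 0.0908% lower. Of the 10, 0 had an unadjusted p under 0.05, against 1662 of 17630 genes, and DESeq2 called 0 of the 10. Irak3 in iKO kidneys ranged from 0.608 over 1.94 to 5.41 CPM, against 0.789, 2.03 and 5.74 CPM in flox kidneys. Its log2 difference was -0.08 (SE 0.18, adjusted p = 0.938). The ranges coincide, with a wider gap between libraries of 1 genotype than between genotypes. The differences of the 10 genes ran from -0.20 for Tlr4 (SE 0.20, adjusted p = 0.823) to 0.18 for Lbp (SE 0.20, adjusted p = 0.848). Without the 11 numbers Irak3 was at -0.36 (SE 0.25, adjusted p = 0.712), and again 0 of the 10 were called, where 0.422% of genes were.

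The same 11 numbers were towards the top in kidney for several members, although they had been picked in liver. The labels do not say whether a number is 1 animal across tissues. Of the 11, 9 were iKO and none was at ZT2 or ZT10, so the 2 sets of kidneys also differ in genotype and time. Lbp was 5.39 to 21.8 CPM in them, against 1.33 to 13.2 CPM in the other 25 kidneys. Cd14 was 8.36 to 24.4 CPM against 1.53 to 18.7 CPM, and Irak3 was 1.66 to 5.74 CPM against 0.608 to 5.13 CPM. All 3 genes overlapped between the 2 sets of kidneys. Irak1 went the other way, at 51.0 to 83.7 CPM against 58.4 to 122 CPM. Macrophage markers summed to 125 to 492 CPM in these kidneys and 80.1 to 228 CPM in the rest, and interferon-stimulated genes to 842 to 4375 CPM and 158 to 912 CPM. Their part in the kidney values was not tested.

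At single times in kidney 0 of 60 differences were called, 5 had an unadjusted p under 0.05 and DESeq2 called 0. Of the 5, 4 fell at ZT18, where 0.0% of all kidney genes were called and 2495 of 17630 had an unadjusted p under 0.05. The 4 were Lbp, Irak3, Nfkbia and Cd14, all with higher fitted values in iKO. The other was Tlr4 at ZT22, where 0.0113% were called and 1512 genes had an unadjusted p under 0.05. Lbp at ZT18 was 21.8, 19.2 and 5.80 CPM in iKO kidneys, against 4.03, 7.36 and 5.48 CPM in flox kidneys. The log2 difference was 1.47 (SE 0.49, adjusted p = 0.226), and the third iKO library lay within the flox range. Without that library, iKO ZT18 3, Lbp was called at 1.88 (adjusted p = 0.0383). That refit left only iKO ZT18 1 and 2 in the group. In the average over times it called 100 kidney genes, against 29 from all libraries. The number of genes it called at ZT18 itself is not given here, so nothing is read from the Lbp call. Irak3 at ZT18 was 4.79, 5.31 and 1.38 CPM in iKO, against 2.02, 2.09 and 1.72 CPM in flox (0.98, SE 0.45, adjusted p = 0.325). The libraries iKO ZT18 1 and 2, high for both genes, were among the 11. At ZT2, where no number is among the 11, Irak3 was 0.916, 0.976 and 0.666 CPM in iKO, against 1.66, 1.01 and 2.37 CPM in flox. These values did not overlap, and the difference of -0.95 (SE 0.49, adjusted p = 0.797) was not called. Groups also did not overlap for Nfkbia at ZT2 and ZT18, Myd88 at ZT10 and Cd14 at ZT18. Such gaps were not counted over all genes. The interaction of genotype and time gave 0 calls among the 10, with 1 unadjusted p under 0.05. Over all 17630 genes it gave 0 calls, with 1373 at an unadjusted p under 0.05.

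In WAT none of the 10 genes was called on average either, and 0.0% of 21402 genes were called, with 805 at an unadjusted p under 0.05 and 25 called by DESeq2. Of the 10 genes, 0 had an unadjusted p under 0.05, and DESeq2 called 0. Irak3 in iKO WAT ranged from 2.45 over 7.13 to 22.9 CPM, against 2.0, 6.93 and 18 CPM in flox WAT (log2 difference 0.13, SE 0.32, adjusted p = 1.0). The 2 ranges coincide here too. The largest difference was that of Irak4, -0.44 (SE 0.32, adjusted p = 1.0), with 7.14 to 83.8 CPM in iKO and 6.80 to 131 CPM in flox. Irak4 at ZT6 was 20.4, 53.9 and 131 CPM in 3 flox libraries of the same time, a wider gap than any fitted difference between genotypes for the 10 genes in WAT. At single times 0 of 60 differences were called, 2 had an unadjusted p under 0.05, and DESeq2 called 0. Both fell at ZT10, where 1241 of 21402 genes had an unadjusted p under 0.05. Lbp at ZT10 was 37.8, 72.8 and 47.7 CPM in iKO, against 12.4, 21.6 and 27.7 CPM in flox (1.36, SE 0.62, adjusted p = 0.840). Ly96 at ZT10 was 3.46, 2.66 and 3.35 CPM in iKO WAT, against 10.8, 5.07 and 6.14 CPM in flox WAT (-1.21, SE 0.52, adjusted p = 0.840). Neither gene's groups overlapped at that time, and neither difference was called. Groups also did not overlap for Irak1 at ZT10, Nfkbia at ZT14 and Ly96 at ZT22. The share of all genes with such gaps was not counted. The common coefficient of variation between libraries was 0.785 in WAT, against 0.514 in liver and 0.302 in kidney, so WAT tests could see only larger differences.

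The kidney difference minus the WAT difference was tested for each of the 10 genes in 1 fit of all libraries of the 3 tissues. Of the 10, 0 were called and 0 had an unadjusted p under 0.05. Over all 22789 genes 0.0132% were called and 718 had an unadjusted p under 0.05. The values ran from -0.27 to 0.51 on the log2 scale, with Irak3 at -0.18 (SE 0.48, adjusted p = 1.0). The liver difference minus that of another tissue shares the contrast that led to Irak3, so it is given as a description only, at 2.10 (SE 0.50) for liver minus kidney and 1.91 (SE 0.49) for liver minus WAT.

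**Figure D3:**
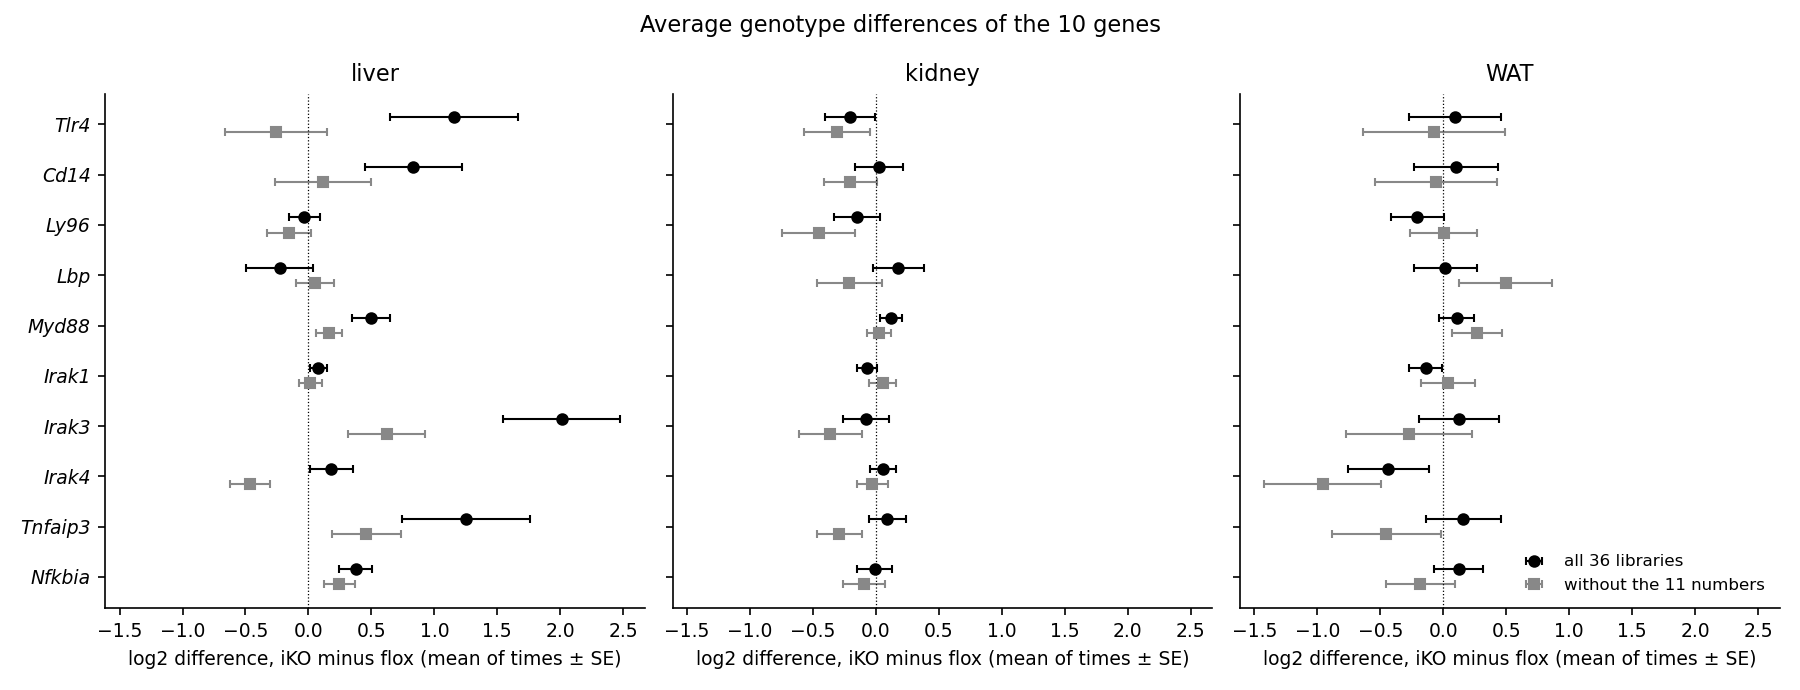
Average log2 difference, iKO minus flox, of the 10 genes in liver, kidney and WAT, with SE bars, from all 36 libraries of a tissue (black circles) and without the 11 numbers (grey squares). Irak3 in liver is at 2.01 and 0.62, and the liver differences of Tlr4, Irak4 and Lbp change sign, while kidney differences from all libraries stay within -0.20 to 0.18.

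Daily rhythm was tested with a 24 h cosine fitted per genotype, whose amplitude is the log2 distance from mean to peak. Of the 10 genes in kidney, Ly96 was called in both genotypes and no other in either, where 4.22% of all genes were called in iKO and 5.07% in flox, a share that 1 of 10 does not stand far from. Ly96 had an amplitude of 0.84 with a peak at 22.6 h in iKO kidney (adjusted p = 0.0183), and of 0.73 with a peak at 0.0815 h in flox kidney (adjusted p = 0.0316). Both peaks lie around lights on. At ZT22 iKO kidneys held 8.81, 5.16 and 9.08 CPM of Ly96, against 5.03, 7.0 and 5.54 CPM in flox. At ZT2 they held 3.05, 7.11 and 6.73 CPM, against 4.54, 6.04 and 13.6 CPM. At ZT10 they held 2.61, 0.885 and 2.7 CPM, against 2.48, 2.1 and 3.63 CPM. Values at ZT10 were the lowest in both genotypes by their means, and the genotypes overlapped at all 3 times. The change of rhythm between genotypes was not called (adjusted p = 1.0).

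These Ly96 calls depended on the model and on single libraries. DESeq2 called both genotypes. With time as a factor of 6 levels, Ly96 was called in iKO kidney (adjusted p = 0.0198) and not in flox kidney (adjusted p = 0.0794). The iKO call was lost without iKO ZT22 3 (adjusted p = 0.0619), without the 2 Xist numbers (adjusted p = 0.0805) and without the 11 numbers (amplitude 0.81, adjusted p = 0.389). Leaving out the 11 took 9 of 18 iKO kidneys, with all of ZT22, near the fitted peak. The share of all genes called rhythmic in iKO then fell from 4.22% to 0.17%, so the loss is not particular to Ly96. The flox call was lost in 6 of 36 refits with 1 library left out, those without flox ZT2 3, ZT10 1, ZT10 2, ZT14 1, ZT14 2 or ZT22 2, with an adjusted p up to 0.129. It held without the 11 numbers (amplitude 0.77, adjusted p = 0.0440), which took 2 of 18 flox kidneys, where 8.65% of genes were called. Time as a factor also called other members in kidney. In iKO these were Tlr4 (adjusted p = 0.00625), Cd14, Lbp, Irak1 and Irak3, where 40.0% of all genes were called. In flox they were Tlr4 (adjusted p = 0.0116) and Myd88 (adjusted p = 0.0485), where 12.4% were.

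**Figure D4:**
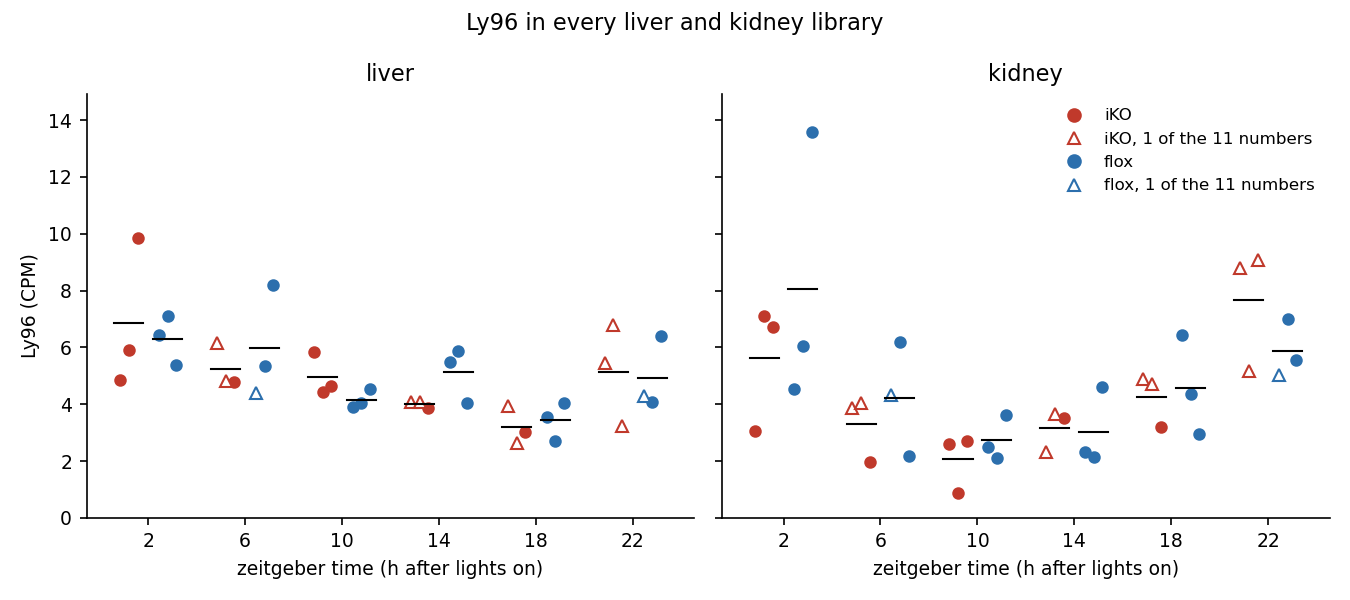
Ly96 in CPM in each liver and kidney library by zeitgeber time, with iKO left of flox, bars for means of 3 libraries, and open triangles for the 11 numbers. In kidney both genotypes are low at ZT10 and ZT14 and high at ZT22 and ZT2, up to 13.6 CPM in flox.

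With the cosine and all libraries, no member was called rhythmic in liver or WAT. In liver 0.0844% of all genes were called in iKO and 0.772% in flox. The 10 genes gave 1 unadjusted p under 0.05 in iKO and 2 in flox, and DESeq2 called 0 of them. Over all 16582 liver genes 2015 in iKO and 2464 in flox had such a p. Irak3 had a fitted amplitude of 0.74 in iKO liver (adjusted p = 0.790) and of 2.37 in flox liver (adjusted p = 0.219). The libraries flox ZT22 1 and flox ZT6 1 held the highest Irak3 values of that genotype. With time as a factor, Tlr4 and Tnfaip3 were called in iKO liver (adjusted p = 0.0491 and 0.0494), where 11.6% of all genes were. In flox liver Irak3 and Tlr4 were called (adjusted p = 0.0388 and 0.0453), where 4.11% were. Without the 11 numbers, the cosine for Irak3 had an amplitude of 0.34 in iKO liver (adjusted p = 0.800), where 0.861% of genes were called. In flox liver it was called at an amplitude of 1.0 with a peak at 0.675 h (adjusted p = 0.0351), where 8.24% of genes were. The change of rhythm was not called (adjusted p = 0.601). In 16 flox livers Irak3 was highest at ZT22, with 3.69 and 3.26 CPM, and at ZT2, with 2.09, 0.993 and 1.57 CPM. It was lowest at ZT14, with 0.416, 0.127 and 1.13 CPM. Myd88 in flox kidney was also called without the 11 numbers, with an amplitude of 0.37 and a peak at 21.3 h (adjusted p = 0.0169), where 8.65% of genes were. In WAT 0.0% of genes and 0 of the 10 were called, and DESeq2 called 0 of the 10. The 10 genes gave 1 unadjusted p under 0.05 in iKO and 3 in flox. Over all 21402 WAT genes 809 in iKO and 2074 in flox had such a p. Arntl, the clock gene, had an amplitude of 0.93 in iKO liver (adjusted p = 0.129) and 1.62 in flox liver (adjusted p = 0.000815), and of 1.28 in iKO kidney and 1.68 in flox kidney. The change of rhythm between genotypes was called for 0 of all genes in liver and 0 in kidney, so not for Arntl.

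In the flox tissues the 10 genes had distinct levels per length, given as CPM per kilobase of exon. In liver Lbp led, with a median of 38.6 and a range of 7.40 to 62.3 over 18 libraries, followed by Nfkbia at 20.3 (15.9 to 52.9) and Irak1 at 11.7 (9.12 to 17.7). Lbp and Nfkbia overlapped in range, as did Nfkbia and Irak1. Myd88 at 9.54, Ly96 at 6.62, Cd14 at 3.03 and Irak4 at 2.22 came next. The lowest were Irak3 at 0.439 (0.0498 to 12.9), Tnfaip3 at 0.291 and Tlr4 at 0.289, whose ranges overlap widely. In kidney Nfkbia led at 16.5, with Irak1 at 14.2 and Myd88 at 6.20, and Irak3 was last at 0.466 (0.182 to 1.32). In WAT Irak1 at 20.5 and Nfkbia at 20.3 led, and Irak3 at 1.33 (0.386 to 3.33), Tlr4 at 1.14 and Tnfaip3 at 0.910 closed the order. In each of the 3 tissues the signal-receiving Tlr4 and the brakes Irak3 and Tnfaip3 were the lowest 3 by median.

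**Figure D5:**
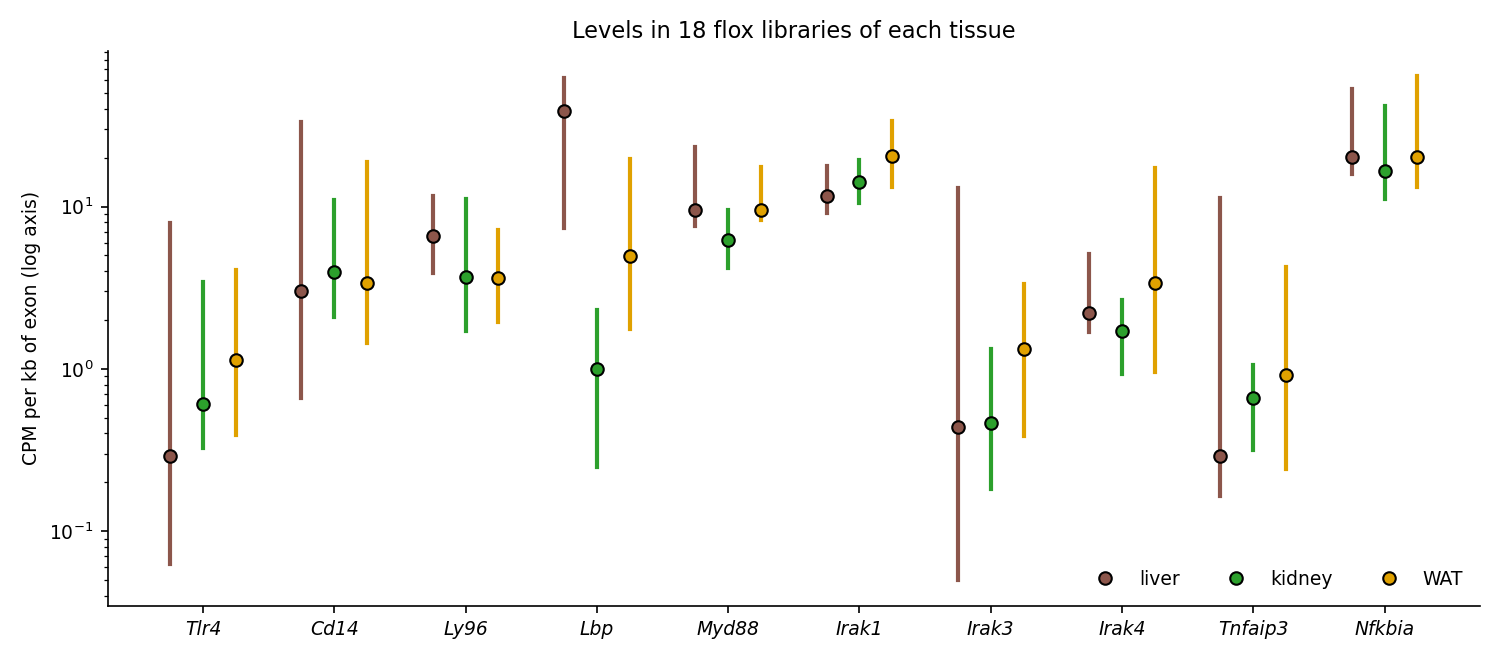
Levels of the 10 genes in CPM per kilobase of exon (log axis) in flox liver, kidney and WAT. Points are medians and lines the lowest to highest of 18 libraries. Lbp is highest in liver at 38.6 and lowest in kidney at 0.994, and the long liver lines of Irak3, Tlr4 and Tnfaip3 reach up to the libraries among the 11.

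Lbp separated the tissues most. Flox liver minus flox kidney was 5.22 on the log2 scale (SE 0.28, adjusted p = 4.1e-19) and liver minus WAT 2.66 (SE 0.25, adjusted p = 3.4e-12), while kidney minus WAT was -2.56 (SE 0.25). Ly96 was also higher in liver, by 0.91 against kidney (SE 0.17, adjusted p = 7.5e-06) and by 0.84 against WAT (SE 0.17, adjusted p = 2.1e-05). The receptor Tlr4 was lower in liver than in WAT, at -1.42 (SE 0.39, adjusted p = 0.00109), a call lost without replicate 3 (-1.08, adjusted p = 0.0554). Irak3 was lower in liver than in WAT at -0.90 (SE 0.34, adjusted p = 0.0145). That call was lost without replicate 2 (-0.74, adjusted p = 0.134) and without replicate 3 (-0.81, adjusted p = 0.0821), while without replicate 1 the value was -1.53. In kidney Irak3 was lower than in WAT at -1.60 (SE 0.33, adjusted p = 7.4e-05), and this was called without any 1 of the 3 replicates. Between liver and kidney its difference of 0.69 (SE 0.34) was not called (adjusted p = 0.0727). The relay genes were lower in kidney than in WAT, Myd88 at -0.75, Irak1 at -0.52 and Irak4 at -1.17, all called. Between liver and kidney 4 of the 10 genes were called higher and 1 lower, between liver and WAT 2 and 4, and between kidney and WAT 0 and 6. Of all genes 66.0%, 77.0% and 65.9% were called in these 3 comparisons, so calls among the 10 were no more frequent than in general. Liver flox libraries also form 1 side of the contrast that led to Irak3.

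The 2 flox numbers among the 11, flox ZT6 1 and flox ZT22 1, weighed on these tissue differences. Without them Tnfaip3 in flox liver minus kidney was -0.88 (adjusted p = 0.00212), against 0.15 (adjusted p = 0.784) with them. Tlr4 in liver minus kidney was then -1.36 (adjusted p = 0.000353), against -0.57 (adjusted p = 0.191). Irak3 in liver minus WAT went to -1.63 (adjusted p = 3.5e-06), and Tnfaip3 in liver minus WAT to -1.57 (adjusted p = 1.1e-06).

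The wider pathway was listed with earlier results known. In liver, where 2.64% of all genes were called, the list of 18 other adaptors, kinases and ligases of Tlr4 had 0 calls and a median log2 difference of 0.06, against 0.00054 over all genes. Of 7 NF-kB and AP-1 subunits 0 were called, with a median of 0.38, and of 21 tested brakes 0 were called, with a median of 0.23. Among 21 tested genes that endotoxin induces, 1 was called higher and 1 lower. They were Il1a, the cytokine interleukin 1 alpha, at 1.31 (SE 0.29), and Lcn2, the iron-binding lipocalin 2, at -1.88 (SE 0.37). Among 11 other Toll-like receptors, Tlr5, the receptor for flagellin, was called higher at 0.59 (SE 0.13), and all 11 had higher fitted values with a median of 0.86. These calls share the contrast that led to Irak3 and are a description. In kidney, where 0.164% of all genes were called, and in WAT, where 0.0% were, the 6 lists gave 0 calls, with kidney medians of -0.02 to 0.16 and WAT medians of -0.02 to 0.41. For daily rhythm, the adaptor gene Ticam1 was called in flox liver (amplitude 0.46, peak at 17.7 h, adjusted p = 0.0441), where 0.772% of all genes were. Tab3, a subunit of the kinase complex below Irak1, was called in flox kidney (0.35, peak at 3.57 h, adjusted p = 0.0201), where 5.07% were. Nothing is read from either call.

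Between flox tissues most genes were called, 66.0% of all genes in liver minus kidney, 77.0% in liver minus WAT and 65.9% in kidney minus WAT, and the counts of the pathway lists stand beside those shares. In liver minus kidney, 17 of 23 tested endotoxin-induced genes were higher and 3 lower, with a median of 2.21 on the log2 scale against -0.06 over all genes. The chemokine gene Cxcl1 led at 5.41 (SE 0.28, adjusted p = 6.5e-20). The acute-phase gene Saa1 had a median of 783 CPM per kilobase in liver and 0 in kidney. Of 7 genes that carry or clear lipopolysaccharide 5 were higher in liver than in kidney, among them Apoe at 7.45 (SE 0.36) and the scavenger receptor Msr1 at 5.52 (SE 0.40), and 2 were lower. Against WAT 6 of these 7 were higher in liver and 0 lower. All 7 NF-kB and AP-1 subunits were lower in kidney than in WAT, with a median of -0.65 against -0.21 over all genes. The other brake Sigirr, a receptor relative that dampens Toll-like receptor signals, was 3.12 higher in kidney than in WAT (SE 0.11, adjusted p = 5.7e-24). It was 1.25 lower in liver than in kidney on the same scale (-1.25, SE 0.11).

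Genes whose liver pattern was most like that of Irak3 were ranked among 10648 genes by the lower of 2 Pearson correlations in log2 CPM, one within the 11 libraries and one within the other 25. Splitting them keeps the gap between the 2 sets out of the ranking. The first 5 were Ell2, a transcription elongation factor (0.80 and 0.66), Tmem183a (0.61 and 0.59), Enpp3, an ectonucleotide pyrophosphatase (0.63 and 0.58), Elovl2, a fatty acid elongase (0.60 and 0.57), and Mcm5, a subunit of the replicative helicase (0.61 and 0.55). Rank correlations for Ell2 were 0.69 and 0.65. The libraries share genotype, time and depth differences with each other, so no p is given. Mcm5 is 1 of the 30 cell cycle genes by which the 11 were picked.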

How the data were processed

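The authors deposited 1 table of read counts per gene for 36 groups of 3 libraries, with whole numbers and no normalization. Trizol extraction and NEBNext Ultra RNA libraries are given per the labels. Per the submitters' processing notes, HISAT2 2.0.4, featureCounts 1.5.0-p3, DESeq2 1.16.1 and build GRCm38 (mm10) were used. The strand setting is not given in the sources used here. Levels are CPM, counts over the TMM-scaled library total, which depend on the other genes of a library.

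Tests used edgeR 4.0.16 in R 4.3.3 on the deposited counts: filterByExpr, TMM, a robust quasi-likelihood fit and Benjamini-Hochberg adjustment over all genes of a fit, called at an adjusted p under 0.05. The genotype and rhythm fits held the 36 libraries of 1 tissue. Tissue differences used 54 flox libraries, and the kidney minus WAT difference of effects used all 3 tissues. SE is the log2 difference divided by the root of F. The fits were tested on simulated data. No 2 libraries of a group agreed within sampling noise (lowest chi-square per degree of freedom 10.6).

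The genes and lists were chosen with earlier results of these data known. Named beside the 10 genes were Arntl, up to 4 called genes of a list with the smallest p in a comparison, and the 5 genes most like Irak3. Alternatives were DESeq2 1.42.0, its size factors, no filter, the replicate block, time as a factor and single libraries left out. Leaving out the 11 numbers and leaving out the 2 Xist numbers were chosen after seeing the data. Deposited gene coordinates equalled GENCODE vM21 for 2.8% of shared genes, although exon lengths did for 98.7%, so coordinates come from vM21. Promoters come from RefSeq on GRCm38.p6.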

Additional observations from a re-analysis of the deposited data

How the results depend on the processing

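Of the 10 genes, the number called in liver on average was 1, and it was 2 with DESeq2, 0 with no filter, 2 with the replicate block, 0 without the 11 numbers and 0 without the Xist numbers. The Irak3 difference was 2.01 with no filter and 1.85 without the Xist numbers, about as large as with all libraries and the filter, and 0.62 without the 11 numbers. The second gene called with DESeq2 and with the replicate block was Myd88. Leaving out single libraries gave 1 to 6 calls. Over all genes in liver 438 were called, with 1597 by DESeq2, 218 with no filter, 796 with the replicate block, 1199 without the 11 numbers, 159 without the Xist numbers, and 208 to 3247 with single libraries left out (the highest without flox ZT6 1). At single liver times DESeq2 called 7 differences among the 10 genes against 0, and leaving out single libraries gave 0 to 5. Time as a factor called 4 rhythms in liver, against 0 with the cosine, and the fit without the 11 numbers called 1. In kidney 29 genes were called on average, 203 by DESeq2, 77 without the 11 numbers, 17 without the Xist numbers, and 6 to 125 with single libraries left out. Single kidney times gave 0 to 1 calls with single libraries left out. Of 2 rhythms called in kidney, time as a factor gave 8, of which 1 was Ly96, in iKO, the fit without the Xist numbers 1 (Ly96 in flox) and single libraries left out 1 to 3. In WAT DESeq2 called 25 genes against 0. The cause of these shifts was not tested.

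Differences between genotypes near 0 changed sign. Without the 11 numbers they were -0.20 for Cd14, -0.21 for Lbp, 0.0539 for Irak1, -0.0273 for Irak4 and -0.29 for Tnfaip3 in kidney. In WAT they were -0.0725 for Tlr4, -0.0585 for Cd14, 0.00314 for Ly96, 0.0392 for Irak1, -0.27 for Irak3, -0.45 for Tnfaip3 and -0.18 for Nfkbia. With no filter Lbp in WAT was at -0.0105, and without the Xist numbers Irak4 in kidney was at -0.0335. With single libraries left out, kidney values ran from -0.0489 to 0.18 for Cd14, -0.14 to 0.0238 for Irak3 and -0.0616 to 0.0832 for Nfkbia. WAT values ran from -0.18 to 0.28 for Tlr4, -0.13 to 0.30 for Cd14, -0.16 to 0.10 for Lbp, -0.11 to 0.34 for Irak3 and -0.0175 to 0.36 for Tnfaip3. Between flox liver and kidney Tnfaip3 was at -0.28 with the replicate block and -0.88 without the 2 flox numbers, and ran from -0.90 to 0.35, and Irak3 from -0.0379 to 0.94, with 1 replicate number left out. Calls among the 30 tissue differences were 17, and 12 to 20 with 1 number left out. The kidney minus WAT difference for Irak3 ran from -0.36 to 0.19.

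The labels do not say what replicate numbers share, and same-numbered samples did not all deviate together, so the numbers were not taken as pairs. Deviations correlated above 0.1 in 6 of 18 pairs of iKO and flox libraries in liver, 5 of 18 in kidney and 10 of 18 in WAT. Between tissues they did so in 17 of 36 pairs of liver and kidney, 6 of liver and WAT and 9 of kidney and WAT. With the replicate block, the flox tissue differences gained Tlr4 in liver minus kidney (-0.95, adjusted p = 0.0272) and Tnfaip3 in liver minus WAT (-0.82, adjusted p = 0.0395). They lost Tlr4 in kidney minus WAT (-0.69, adjusted p = 0.0868) and Irak4 in liver minus WAT (-0.46, adjusted p = 0.0716). With the replicate block Nfkbia in kidney was at 0.00308. With 3 libraries a group and Irak3 often under 2 CPM, single times could show only large differences.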
